A study of Mus musculus with 9 samples.

Results

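The H2-Q genes are a cluster of non-classical major histocompatibility complex class I (MHCI) genes on mouse chromosome 17, and 7 of them, H2-Q1, H2-Q2, H2-Q4, H2-Q5, H2-Q6, H2-Q7 and H2-Q10, were examined for occupancy by NLRC5 in T cells. They were taken by name out of the 55450 genes of the GENCODE M21 annotation. A peak belonged to one of them when it overlapped the gene body or lay within 5 kb of the transcription start site (TSS), and it was given to the nearest TSS among the 7. By this rule 35 of the 8593 peaks in 7 deposited lists were peaks of an H2-Q gene.

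NLRC5 is a member of the NOD-like receptor family that works in the nucleus as a transactivator of MHCI genes. It does not recognise DNA by itself and is recruited by a complex of factors, among them RFX with its subunit RFX5, assembled on the S, X and Y boxes of the promoter. Non-classical MHCI molecules resemble the classical ones but are less polymorphic and often restricted in where they are expressed. H2-Q6 and H2-Q7 encode Qa-2, a lipid-anchored surface molecule of lymphocytes. H2-Q4 encodes Qb-1, and H2-Q10 encodes a soluble molecule that is secreted by the liver. H2-Q5 is annotated as a polymorphic pseudogene, whereas the other members are annotated as protein coding.

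ChIP-seq with a polyclonal anti-NLRC5 antibody had been done on T cells, enriched with magnetic beads against CD4 and CD8, of mice aged 6 to 12 weeks, and 5 mice were pooled per genotype. WT and Nlrc5F/F mice, the latter with a floxed but functional Nlrc5 gene, were on the C57Bl/6 (H2b) background, and Rfx5-/- mice, which lack the RFX5 subunit, were on a mixed Sv129 and C57Bl/6 (H2b) background. Each genotype had 1 library. The 5 WT lists (A to E) are pseudo-replicates, that is, subsets of the reads of the same WT library, so that their spread shows the sampling of reads and not the variation between mice. All lists had been called against the reads of Nlrc5-/- T cells, also on the C57Bl/6 (H2b) background. The full WT library and the Nlrc5-/- library itself were not analysed here. The lists held 459 to 1436 peaks for WT, 1949 for Nlrc5F/F and 1970 for Rfx5-/-, and how many reads support a single peak is unknown. The WT counts are those that the study gives for its lenient calling, before it filtered for reproducibility between the pseudo-replicates. Far fewer peaks remained after that filter. With 1 library per genotype no difference between genotypes could be tested. All positions are on GRCm38.

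The letters that carry the results are shown first. An SXY match was defined as AACNTG (S box), ACTGNTGAC (core of the X box) and ATTGGNTG (Y box) in this order, with 17 to 27 bases between S and X and 15 to 27 bases between X and Y. It was searched on both strands from 500 bp upstream to 50 bp downstream of the TSS. These letters and spacings were taken from an alignment by the study that holds occupied H2-Q promoters, so a match in those is no independent finding. The promoters of 4 of the 7 members held a match, and in the following lines, read 5′ to 3′ on the forward strand from the RefSeq GRCm38.p6 sequence, capitals mark the 3 boxes.
H2-Q4, chr17:35379480-35379545: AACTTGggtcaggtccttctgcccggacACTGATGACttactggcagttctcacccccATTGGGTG
H2-Q5, chr17:35393963-35394027: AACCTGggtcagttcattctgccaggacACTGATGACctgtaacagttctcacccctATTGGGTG
H2-Q6, chr17:35424714-35424778: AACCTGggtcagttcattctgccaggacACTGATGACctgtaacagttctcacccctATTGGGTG
H2-Q7, chr17:35439058-35439122: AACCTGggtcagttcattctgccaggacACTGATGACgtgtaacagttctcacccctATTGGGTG

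Over all 55450 annotated promoters of this length 5 held a match (0.00902%), namely these 4 and the promoter of H2-K1, a classical MHCI gene. The study's own search scored sequences instead of requiring exact letters. It also predicted modules at H2-D1, B2m, Tap1, H2-T10, H2-T22 and H2-K2, which these letters missed. The share therefore describes this strict set of letters and not the SXY module as such. The match began 137 bp upstream of the TSS at H2-Q4, 163 bp at H2-Q5, 136 bp at H2-Q6 and 97 bp at H2-Q7. The modules of H2-Q5 and H2-Q6 were identical over all 65 bases. That of H2-Q7 differed from both by 1 base, C38G, counted from 1 at the first base of the S box, which lies just after the X core. The module of H2-Q4 was 66 bases long and differed from each of the other modules by 9 substitutions and 1 gap.

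The other 3 promoters held no match. The stretch most like the H2-Q4 module is shown for H2-Q2 and H2-Q10. These are the genes without a match in which it lies wholly upstream of the TSS, and capitals mark any complete box.
H2-Q2, chr17:35342160-35342233: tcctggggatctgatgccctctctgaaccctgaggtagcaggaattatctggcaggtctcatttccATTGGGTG
H2-Q10, chr17:35469950-35470018: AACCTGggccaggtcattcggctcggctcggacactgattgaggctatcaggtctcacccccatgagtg

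H2-Q2 held the Y box letters, with 8 of 8 bases equal to those of H2-Q4, and H2-Q10 held an S box. Single boxes are not rare. Over all 55450 promoters, on either strand, 62.1% held the S letters, 8.39% the Y letters and 1.78% the X letters. In H2-Q1 the most similar stretch lay from 8 bp upstream to 59 bp downstream of the GENCODE TSS, with a complete Y box. None of these stretches held the complete X core, but how many of its bases were equal depended on how it was placed. In the end-to-end alignment with the H2-Q4 module 4 of 9 bases were equal at H2-Q2, 4 at H2-Q10 and 5 at H2-Q1. When the X core was placed on its own anywhere in the stretch without a gap, 7 of 9 bases were equal at H2-Q1, 7 at H2-Q2 and 6 at H2-Q10, and with 1 inserted base 8 of 9 at each of the 3 genes. These counts are the best over the whole stretch, and how often other sequence reaches them was not measured. At H2-Q10 both placements of the X core on its own began 106 bp before the TSS. The RefSeq TSS of H2-Q1 lies 120 bp downstream of the GENCODE TSS, and that of H2-Q2 65 bp downstream.

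NLRC5 peaks were present at 3 of the 7 genes. H2-Q4, H2-Q6 and H2-Q7 had a peak in each of the 5 WT lists and in the Nlrc5F/F list. H2-Q1, H2-Q2, H2-Q5 and H2-Q10 had no peak in any list, and no H2-Q gene had one in the Rfx5-/- list. As background, when each peak was given to the nearest TSS among all annotated genes, 25 of 55450 genes (0.0451%) had a peak in all 5 WT lists, 2.01% in the Nlrc5F/F list and 1.93% in the Rfx5-/- list. The 3 genes with peaks were all among the 4 with an SXY match, and H2-Q5 was the gene with a match but no peak. The study's supplement lists H2-Q5 among promoters with a predicted module and marks it as bound by NLRC5. Its main table of occupied sites does not list H2-Q5.

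H2-Q4 was covered by 1 broad peak in every WT list. Its score, which is the −log10 p-value of the authors' peak calling, was 104 in WT A, 112 in WT B, 98.1 in WT C, 94.0 in WT D and 88.2 in WT E. It held rank 5 by score in all 5 lists. The peak was 667 to 802 bp wide, with a median of 717 bp, and no flanking peak was called. Few peaks were as wide: 6 or 7 peaks of each WT list exceeded 500 bp. It ran from 436 bp upstream to 381 bp downstream of the TSS over all lists (chr17:35379181-35379998), across the 5′ UTR and coding parts of exons 1 and 2. It also covered an exon of Gm11131, a gene on the opposite strand that begins within H2-Q4, and peaks carry no strand. In Nlrc5F/F cells the peak at H2-Q4 scored 14.4 with rank 9 of 1949. It was 279 bp wide and ran from 264 bp upstream to 14 bp downstream of the TSS, inside the span of every WT peak.

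H2-Q6 had the lowest scores of the occupied genes in WT. They were 32.9 in WT A, 38.1 in WT B, 26.0 in WT C, 34.2 in WT D and 20.8 in WT E, with ranks between 7 and 11. The highest H2-Q6 score lay below the lowest H2-Q4 score, so that the values of these genes did not overlap over these subsets of 1 WT library. The peak was narrow, with 119 to 178 bp and a median of 149 bp. Its downstream edge was steady and lay 29 to 34 bp after the TSS in all 5 lists, in the coding part of exon 1. Its upstream edge varied between 143 bp (WT B) and 89 bp (WT E) before the TSS. As a result, all 65 bases of the SXY module lay under the peak in WT A and WT B, 48 in WT D, 23 in WT C and 18 in WT E. In Nlrc5F/F cells the score was 14.2 with rank 11, the width was 141 bp, within the WT range, and 51 bases of the module were covered.

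H2-Q7 had the highest scores of the 7 genes in every list that held a peak. The main peak scored 142 in WT A, 146 in WT B, 140 in WT C, 140 in WT D and 151 in WT E. It ranked 3 in 4 lists and 4 in WT B. All peaks began 335 to 343 bp upstream of the TSS, a spread of 8 bp. Their downstream ends fell into separate positions: 67 or 68 bp after the TSS, within exon 1, in WT B, D and E, but 14 and 32 bp before the TSS in WT A and C. The width accordingly was 406 to 409 bp in the former and 322 and 312 bp in the latter lists. All 65 bases of the module were covered in each WT list. In Nlrc5F/F cells the peak scored 36.7 with rank 4, ran from 339 to 41 bp upstream of the TSS and covered 57 bases of the module.

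**Figure D1:**
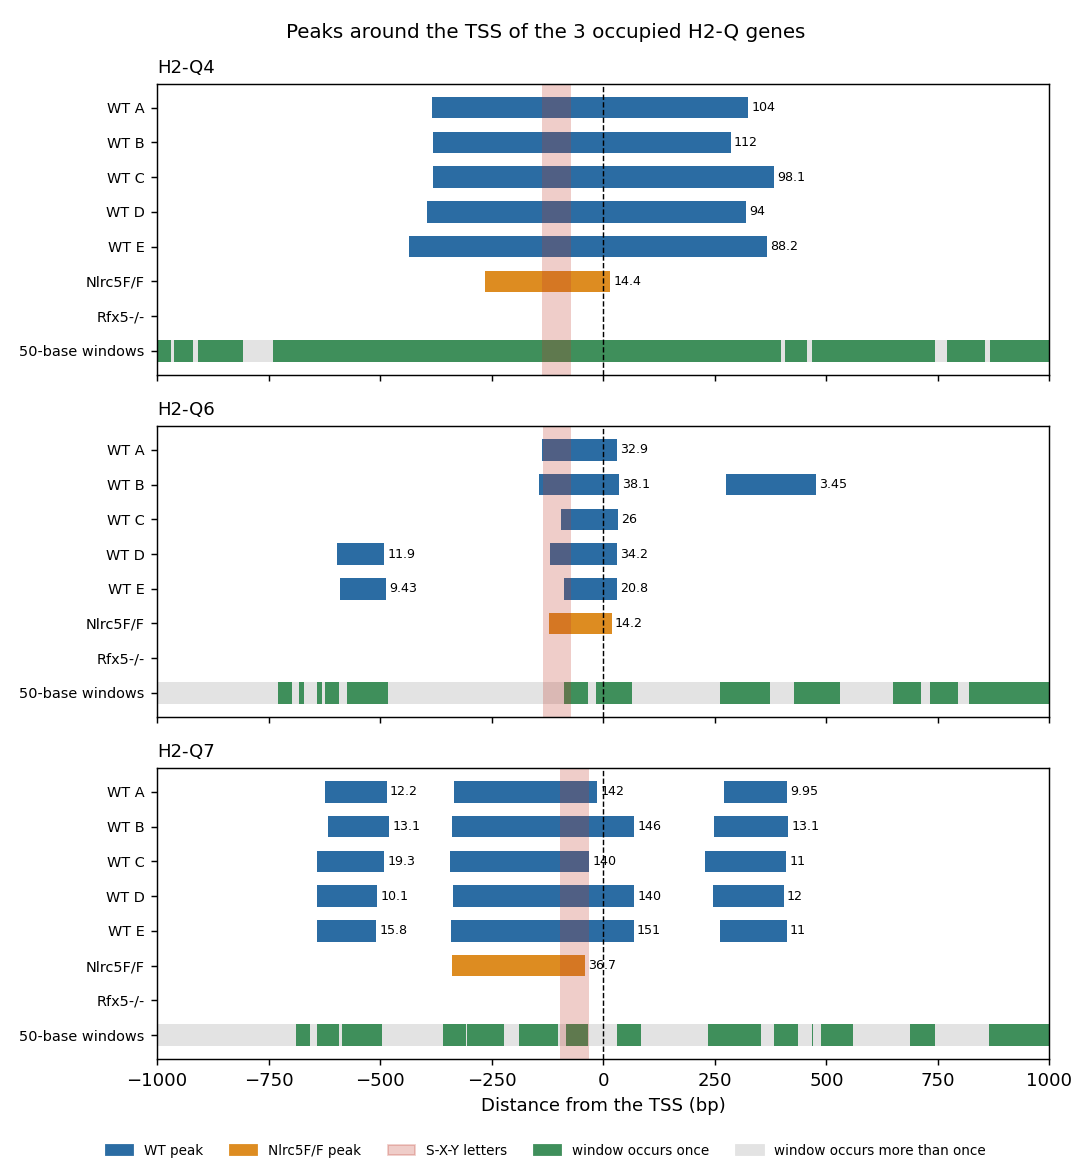
Peaks around the TSS of H2-Q4, H2-Q6 and H2-Q7, 1 row for each list, with distance from the TSS in bp on the x axis and the peak score beside each bar. The pink band is the SXY module and the lowest row shows in green the centres of 50-base windows that occur once in the genome. H2-Q4 has 1 broad peak in each WT list, H2-Q7 has 3 peaks in each WT list, and the Rfx5-/- rows are empty.

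The main peak of H2-Q7 was accompanied by flanking peaks in all 5 WT lists. The upstream flank lay 642 to 481 bp before the TSS (chr17:35438513-35438674), was 132 to 151 bp wide and scored 12.2 in WT A, 13.1 in WT B, 19.3 in WT C, 10.06 in WT D and 15.8 in WT E. The downstream flank lay 228 to 414 bp after the TSS (chr17:35439383-35439569), in the coding part of exon 2, and scored 9.95, 13.1, 10.97, 12.0 and 10.97 in WT A to E. Both flanks ranked between 12 and 28, which was within the highest 5.88% of the peaks of each list. Neither flank was called in Nlrc5F/F cells. At H2-Q7 the study's main table of occupied sites lists the main peak only.

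Flanks at similar distances appeared at H2-Q6 in some of the WT lists. An upstream flank 596 to 488 bp before the TSS was called in WT D with a score of 11.9 and in WT E with 9.43. A downstream flank 276 to 476 bp after the TSS, also in exon 2, was called in WT B alone with 3.45, rank 514 of 529. When the sequences of both genes were aligned from 1000 bp upstream to 700 bp downstream of their TSSs, the upstream flank of H2-Q7 corresponded to 682 to 521 bp before the TSS of H2-Q6 and shared 76 bp with the upstream flank there. The downstream flank corresponded to 189 to 375 bp after the TSS of H2-Q6 and shared 100 bp with the flank in WT B. The downstream end of the main H2-Q7 peak fell at 29 bp after the TSS of H2-Q6, the same position as the edge of the H2-Q6 peak in WT D and E. Its upstream end fell 383 bp before that TSS, where no peak of H2-Q6 reached.

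A more distant peak was given to H2-Q7 in 4 of the 5 WT lists, 4143 to 3982 bp before its TSS (chr17:35435012-35435173), between genes. Its score was 7.51 in WT A, 11.5 in WT B, 10.4 in WT C and 7.37 in WT D, with ranks from 19 to 61. It was absent from WT E, Nlrc5F/F and Rfx5-/-. It is the H2-Q peak farthest from its TSS. The study's main table of occupied sites does not list it, and the study reported no intergenic enhancer with NLRC5 within the MHC. The nearest peak not given to an H2-Q gene was that of WT C at 18494 bp upstream of the TSS of H2-Q1 (score 8.15), followed by an Rfx5-/- peak at 25210 bp (score 4.46). The 64 bases of the distal site common to its 4 lists are shown because it is the recurrent H2-Q site farthest from a TSS. They held no S, X or Y letters as defined above.
H2-Q7 distal site, chr17:35435051-35435114: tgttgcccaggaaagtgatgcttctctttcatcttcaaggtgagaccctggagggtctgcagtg

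Merging overlapping peaks gave 8 H2-Q sites. Of these, 5 were present in all 5 WT lists: the peak at H2-Q4, the main peaks at H2-Q6 and H2-Q7, and both flanks of H2-Q7. The remaining ones were present in 4, 2 and 1 WT lists. Only the 3 main peaks contained an SXY module. They were also the only sites found in Nlrc5F/F cells, that is, 3 of the 5, beside 17 of 32 (53.1%) for the sites that all 5 WT lists shared across the genome. In the Rfx5-/- list 0 of the 5 were found, beside 10 of 32 (31.2%). Because the Rfx5-/- mice had a mixed Sv129 background, genotype and strain cannot be told apart. The RefSeq sequence of a chromosome 17 scaffold from a strain related to Sv129 held 100% of the 50-base windows within 500 bp of the TSS of 6 members. For H2-Q5 it held 73.5%. A window counted when its letters occurred anywhere on the scaffold, so a copy at another H2-Q gene also counted. These shares therefore give neither the position nor the number of copies in that strain, and the strain's part was not tested.

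The genes kept their order by score in WT, H2-Q7 above H2-Q4 above H2-Q6, in all 5 lists. Scores rest only on reads with a single best position, and the share of sequence that can carry such reads differed between these genes, as given below. The order is therefore one of scores and not a measure of relative occupancy. The H2-Q7 score was 1.31 to 1.72 times that of H2-Q4, and the H2-Q4 score was 2.75 to 4.25 times that of H2-Q6. In Nlrc5F/F cells H2-Q7 remained highest at 2.55 times H2-Q4, whereas H2-Q4 and H2-Q6 differed by a factor of 1.01. To set the lists side by side, each score was divided by that of the H2-D1 peak, the highest of the same list for WT and Nlrc5F/F. H2-Q4 reached 45.6% to 56.5% of H2-D1 in WT and 13.9% in Nlrc5F/F. H2-Q7 reached 59.7% to 94.5% in WT and 35.4% in Nlrc5F/F. The share of H2-Q6, 13.0% to 19.7% in WT and 13.7% in Nlrc5F/F, was the only one within the WT range. A −log10 p-value does not scale in proportion to the number of reads. The lists do not give the reads under a peak, and the study states a fixed number of reads for each WT subset but only a lower bound for the Nlrc5F/F library, so these shares are descriptions and the difference between genotypes was not tested.

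**Figure D2:**
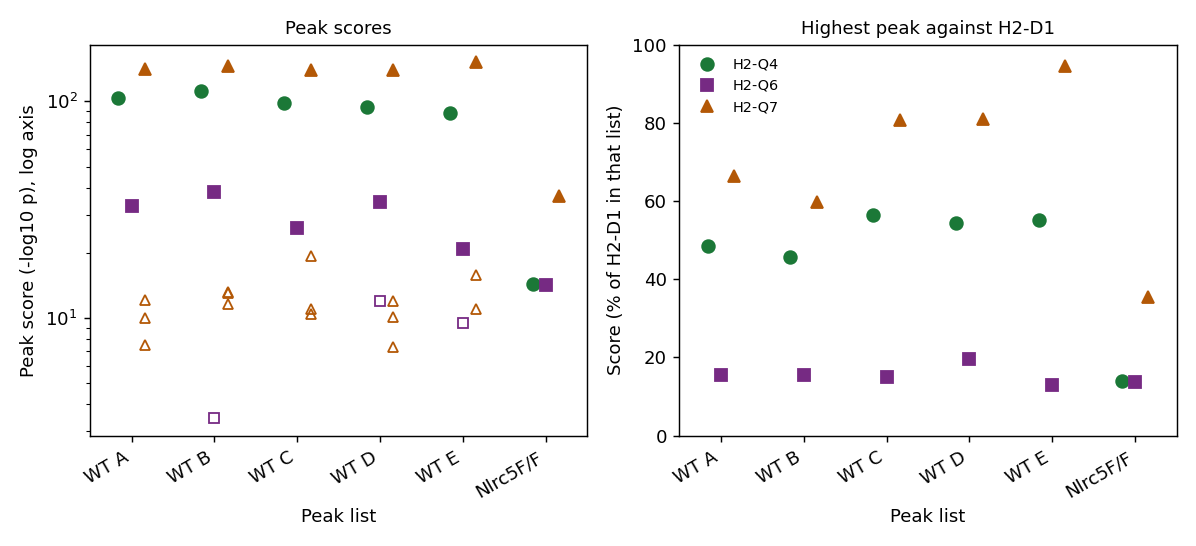
Scores of the H2-Q peaks in the 5 WT lists and the Nlrc5F/F list. Left, −log10 p-value on a log axis, with filled symbols for the highest peak of each gene and open symbols for its other peaks. Right, the highest peak as a percentage of the H2-D1 peak of the same list. H2-Q4 and H2-Q6 are apart in WT, at 88.2 or more and 38.1 or less, and lie together at 14.4 and 14.2 in Nlrc5F/F.

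In places the H2-Q genes are near-identical copies of each other, and reads without a single best position had been discarded by the authors. Reads from a stretch that occurs more than once are then lost, and a gene lying in such sequence can have a peak that is narrow, split or missing from the list. How much of each promoter could carry reads was therefore measured in the reference genome. A window of 50 bases, placed by its centre, was called unique when its letters occurred once on chromosomes 1 to 19, X, Y and MT on either strand. The read length is not given in the sources used here, and windows of 36 and 100 bases were tried beside it.

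Within 500 bp of the TSS, 100% of the windows were unique at H2-Q10, 98.0% at H2-Q4, 88.9% at H2-Q2 and 84.5% at H2-Q1. In contrast, 51.7% were unique at H2-Q7, 33.9% at H2-Q6 and 24.7% at H2-Q5. Whether these unequal shares bore on the differences in score between H2-Q4, H2-Q6 and H2-Q7 was not tested. The longest run of unique windows was 1001 positions at H2-Q10 and 899 at H2-Q4, whereas it was 119 at H2-Q7, 112 at H2-Q6 and 89 at H2-Q5. H2-Q5, H2-Q6 and H2-Q7 held the most repeated windows and shared most of these with each other. Of the 754 repeated windows of H2-Q5, 653 had a copy at H2-Q6, from 5 kb upstream of its TSS to its end. A copy at H2-Q7 was found for 379 of the 754. At H2-Q6, 661 of 662 repeated windows had a copy at H2-Q5. At H2-Q7 the number was 436 of 483.

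**Figure D3:**
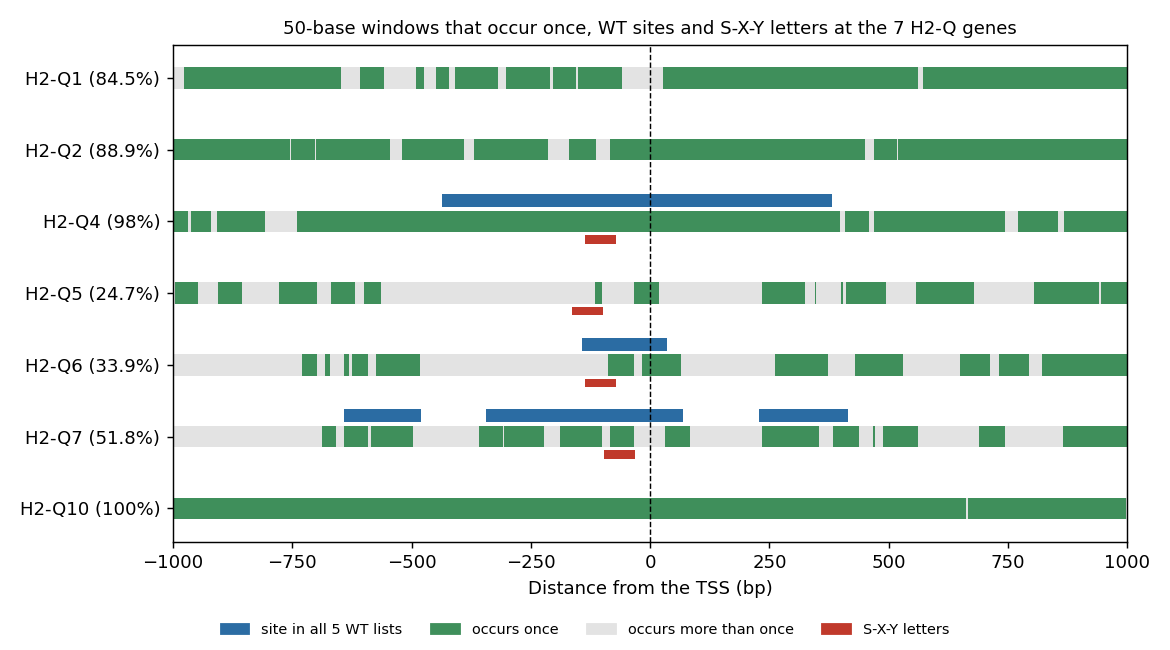
Position of unique 50-base windows (green) and repeated ones (grey) by distance from the TSS in bp for the 7 H2-Q genes, with the sites of all 5 WT lists as blue bars above and the SXY modules as red bars below. The percentage beside each gene is its share of unique windows within 500 bp of the TSS. H2-Q1, H2-Q2 and H2-Q10 have mostly unique sequence and neither module nor site, whereas H2-Q5, with 24.7% unique windows, has a module and no site.

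The called sites held larger shares of unique windows than the gaps between them. At H2-Q7, 85.2% of the windows under the upstream flank, 71.1% under the main site and 80.7% under the downstream flank were unique, against 10.9% (15 of 137) and 10.06% (16 of 159) in the gaps between them. At H2-Q6, 83.5%, 59.0% and 72.6% were unique under the upstream, main and downstream sites, against 1.74% (6 of 344) in the upstream and 18.7% (45 of 241) in the downstream gap. At H2-Q4 all 818 windows under the site were unique, and this was the site without gaps. The upstream edge of the narrowest H2-Q6 peaks, 94 and 89 bp before the TSS in WT C and E, adjoined a repeated stretch that ran from 481 to 89 bp before the TSS. In the other lists with a peak the edge lay farther inside that stretch. It was 138 bp before the TSS in WT A, 143 bp in WT B, 119 bp in WT D and 122 bp in Nlrc5F/F. The peaks of H2-Q7 began 335 to 343 bp before the TSS, next to a repeated stretch from 496 to 359 bp. With windows of 36 bases the 4 gaps held 0% to 12.9% unique windows, and with 100 bases 9.01% to 39.4%, in each case less than the sites of the same gene. Whether the loss of reads made the gaps was not tested, since the reads were not analysed here.

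The same measure was taken over the SXY modules. All 66 window centres within the module of H2-Q4 were unique, 50 of 65 at H2-Q7, 17 of 65 at H2-Q6 and 15 of 65 at H2-Q5. The stretch of H2-Q5 that aligned with the main site of H2-Q6, 170 bp before to 7 bp after its TSS, held 57 unique windows of 178, compared with 105 of 178 at H2-Q6 itself. The promoters of H2-Q5 and H2-Q6 were identical in 520 of 578 alignment columns (90.0%), where a gap counted as a difference. Both promoters were cut at fixed distances from the TSS. The module began 163 bp before the TSS at H2-Q5 and 136 bp at H2-Q6, and such a shift adds gaps and lowers the share. For H2-Q5, an absence of NLRC5 and a loss of its reads cannot be told apart from the lists, and the peaks at H2-Q6 and H2-Q7 rest on the part of their promoters that is unique. H2-Q1 and H2-Q2 also held repeated stretches, with 155 and 111 repeated windows within 500 bp of the TSS. One at H2-Q1 ran from 58 bp before to 26 bp after the TSS, into the stretch most like the module, and one at H2-Q2 from 112 to 85 bp before the TSS. H2-Q10 held none within 500 bp. Whether a loss of reads bore on the missing peaks at these genes was not tested.

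The promoters of the family fell into sets by their letters. Identity was counted over alignment columns, and a gap counted as a difference. All promoters were cut at fixed distances from the TSS, so a shifted TSS adds gaps and lowers the share. The module began 97 bp before the TSS at H2-Q7, but 136 bp at H2-Q6 and 137 bp at H2-Q4. The shares of H2-Q7 therefore do not give the identity of its aligned bases alone. H2-Q1 and H2-Q2 were 71.8% identical to each other and 40.2% to 44.3% identical to the other 5 members. H2-Q10, though unoccupied, was 79.4% identical to H2-Q4 and 79.1% to H2-Q6, beside 82.9% between H2-Q4 and H2-Q6. It was 71.0% identical to H2-Q7, which was 74.8% identical to H2-Q4 and 84.9% to H2-Q6. H2-Q10 held neither the complete letters of the X core nor those of the Y box.

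By the same rule, with each peak given to the nearest TSS of any gene, 6 of 21 other MHCI genes and genes of antigen processing had a peak in all 5 WT lists: H2-K1, H2-D1, H2-K2, H2-M3, B2m and Tap1. Of these, 4 had one in Nlrc5F/F, and none of the 21 had one in Rfx5-/-. Another 3 genes, H2-T10, H2-T22 and Psmb9, had a peak within the window in all 5 WT lists that was nearer to the TSS of a neighbour. H2-Q8 and H2-Q9, the remaining Qa-2 genes, are not in the GENCODE M21 annotation and were not analysed here.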

How the data were processed

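The deposited files are 7 peak lists. The authors mapped Illumina reads (CASAVA 1.8.2) to GRCm38 with Bowtie 0.12.7, kept uniquely placed reads, and called peaks with MACS2 2.0.10.20130520 at a p-value threshold of 0.001 against Nlrc5-/- reads, scaling the smaller data set to the larger. The score in the deposited lists was taken as −log10 of the p-value, because its lowest value per list is just above 3. No header states it.

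Peaks were assigned to the GENCODE M21 TSSs of the 7 genes, and peaks overlapping by at least 1 bp were merged. Ranks are by score within a list. Genes named were the 7 members, genes under or nearest to their peaks, and 23 other MHCI and antigen processing genes (21 in the annotation). Members and lists were chosen with earlier results of these data known. Promoter letters, alignments and unique windows were computed from RefSeq GRCm38.p6 with Python 3.11.15, numpy 2.4.6 and biopython 1.88, and figures were drawn with matplotlib 3.10.9. All alignments used match 1 and mismatch −1. The placing of the H2-Q4 module in other promoters used a gap of −3 for each base. The alignments between promoters, between sites and between modules used separate costs to open and to extend a gap. The assignment, the letter search and the window counts were tested on simulated data. Alternatives were other windows, annotations, score minimums, overlaps, spacings and window lengths, and leaving out each WT list. No statistical test was possible with 1 library per genotype.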

Additional observations from a re-analysis of the deposited data

Results flagged for a closer look

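Among 18 sets of WT values (score, width and rank of each recurrent site), 2 held a list whose gap to the nearest other list, divided by the range of the set, was above Dixon's critical value. The upstream flank of H2-Q7 held rank 28 in WT D, whereas its rank was 12 to 16 in the other lists. The main peak of H2-Q7 held rank 4 in WT B and rank 3 in the others, a step of 1 place. By construction this limit marks about 1 in 20 sets of normally distributed values. That rate does not hold for ranks with ties, and it was not measured here.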

How the results depend on the processing

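The number of occupied members stayed at 3 in all WT lists, 3 in Nlrc5F/F and 0 in Rfx5-/- with a distance of 1 or 10 kb, promoters only, the nearest TSS among all genes, a score of at least 5 or RefSeq TSSs, and for WT also with presence in at least 3 lists or at least 1. Without each WT list in turn it stayed at 3, the sites in all remaining lists numbered 5 to 6, the median score ranged from 96.0 to 101 at H2-Q4, 29.4 to 33.5 at H2-Q6 and 141 to 144 at H2-Q7, and the median width from 713 to 740, 138 to 159 and 364 to 407 bp. The 4 members with an SXY match were 4 under every spacing and promoter length tried. Within 1 kb of the TSS the share of unique windows depended on their length. It was 85.6% (50 bases) at H2-Q1, 92.9% at H2-Q2, 92.5% at H2-Q4, 41.3% at H2-Q5, 41.6% at H2-Q6, 46.7% at H2-Q7 and 99.7% at H2-Q10. In the same order it was 77.3%, 83.8%, 85.2%, 30.3%, 32.8%, 36.03% and 95.1% with 36 bases, and 98.3%, 100%, 99.2%, 65.8%, 59.6%, 68.3% and 100% with 100 bases, so that H2-Q5, H2-Q6 and H2-Q7 were lowest at each length. No paired analysis was possible because each genotype had 1 library.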
